A study of Homo sapiens with 24 samples.

Results

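The 10 genes CDH1, CDH2, EPCAM, VIM, SNAI1, SNAI2, ZEB1, ZEB2, TWIST1 and ESRP1, which are used to follow the switch between an epithelial and a mesenchymal state, were read from RNA-seq of human osteosarcoma cells. They were taken by name, and the 10 names matched 10 of the 57820 gene rows counted in every library. RNA was sequenced from 24 libraries, 3 biological replicates in each of 8 groups. U2OS is an osteosarcoma cell line, and AID-DIvA is a U2OS derivative that carries a vector for the AsiSI restriction enzyme. Both were used as WT and as ID3-KO cells, which lack the inhibitor of DNA-binding protein ID3. The AID-DIvA cells were either untreated or exposed to mocetinostat, an inhibitor of class I histone deacetylases, for 24 h, with the medium then replaced and the cells left to recover for 24 h. The U2OS cells were either untreated or exposed for 24 h, and since no recovery is named for them they are taken here as collected at the end of treatment. For these cultures no mocetinostat dose, no genetic detail of the knockouts and no number of clones were given in the sources used here. No induction of AsiSI was named for these libraries, and no recovered U2OS group or AID-DIvA group collected at the end of treatment was analysed here, so cell line and time of collection cannot be told apart. Titles and treatment entries contradict each other for all 12 AID-DIvA libraries, and groups were set by title.

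In an epithelium, E-cadherin (CDH1) and EPCAM hold neighbouring cells together, and ESRP1 directs epithelial splice forms of many transcripts. The zinc finger proteins SNAI1, SNAI2, ZEB1 and ZEB2 and the helix-loop-helix protein TWIST1 repress such genes during development, wound healing and the spread of carcinomas. SNAI and ZEB proteins bind E-boxes and work with corepressor complexes that contain class I histone deacetylases, the enzymes mocetinostat inhibits. N-cadherin (CDH2) and the intermediate filament protein vimentin (VIM) mark the mesenchymal state. Osteosarcoma cells arise from mesenchyme, so a mesenchymal set of these genes is their usual state. ID3 itself lacks a DNA-binding domain and holds helix-loop-helix partners away from E-boxes.

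Promoter sequences are shown for VIM and CDH2, both of which were higher in KO cells of both lines, and for the 2 windows of ZEB1 that carry the E-box CAGGTG, the motif that SNAI and ZEB proteins recognise. RefSeq on GRCh38.p14 held 11 windows for 4 of the 10 genes, namely 1 for VIM, 1 for ZEB2, 2 for CDH2 and 7 for ZEB1, while CDH1, EPCAM, SNAI1, SNAI2, TWIST1 and ESRP1 had no entry. Each line holds the 250 bases before the annotated start, written 5′ to 3′ along the gene, with CAGGTG on either strand (CACCTG when read on the other) in capitals.
VIM chr10:17227991-17228240 (+ strand): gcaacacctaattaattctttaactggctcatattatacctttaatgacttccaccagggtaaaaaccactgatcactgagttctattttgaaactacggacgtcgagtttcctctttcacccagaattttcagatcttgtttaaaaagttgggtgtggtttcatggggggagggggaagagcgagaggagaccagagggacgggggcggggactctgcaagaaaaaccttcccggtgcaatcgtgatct
CDH2 chr18:28177131-28177380 (- strand): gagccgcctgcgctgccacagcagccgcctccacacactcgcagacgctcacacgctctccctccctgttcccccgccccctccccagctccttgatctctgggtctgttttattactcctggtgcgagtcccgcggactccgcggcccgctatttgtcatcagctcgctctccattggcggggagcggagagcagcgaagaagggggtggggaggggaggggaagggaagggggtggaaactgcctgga
ZEB1 chr10:31318167-31318416 (+ strand): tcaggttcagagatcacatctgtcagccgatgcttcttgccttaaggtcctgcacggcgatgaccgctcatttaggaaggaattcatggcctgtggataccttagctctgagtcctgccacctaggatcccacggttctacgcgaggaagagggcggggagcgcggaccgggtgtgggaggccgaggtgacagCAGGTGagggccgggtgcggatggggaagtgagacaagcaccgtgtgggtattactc
ZEB1 chr10:31318966-31319215 (+ strand): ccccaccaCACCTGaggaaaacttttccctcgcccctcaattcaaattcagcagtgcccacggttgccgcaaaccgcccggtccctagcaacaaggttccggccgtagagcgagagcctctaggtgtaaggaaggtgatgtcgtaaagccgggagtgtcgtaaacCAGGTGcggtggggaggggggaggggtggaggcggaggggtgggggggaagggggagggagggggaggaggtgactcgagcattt
The search covered windows of 300 bases that run on past the start, on both strands. Counting from the annotated start, CAGGTG began at position -57 in the first ZEB1 window. In the second it began at positions -242 and -85, with a further match at 34, beyond the bases printed. No match to CAGGTG was found in the windows of VIM, ZEB2 or CDH2, nor in the other ZEB1 windows. Of 35116 promoter windows of all genes, 20.6% held CAGGTG. The related E-box CAGCTG, which was searched as a separate sequence, was found in 2 of the ZEB1 windows and in 17.9% of all windows.

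Total counts ran from 37878751 to 76906266 per library, so that 3 counts, the limit that a count of 0 allows, corresponded to between 0.0390 and 0.0792 CPM, the count scaled to library size. This limit covers counting error only. ID3 was read at 47.9 to 51.9 CPM in untreated WT and 32.03 to 38.8 CPM in untreated KO AID-DIvA libraries, and at 52.1 to 80.7 CPM against 29.3 to 32.3 CPM in the untreated U2OS libraries, so the untreated KO libraries were lower but retained ID3 RNA. Recovered KO AID-DIvA libraries had 2360, 4050 and 3042 ID3 counts in totals of 37878751, 69381734 and 47950399. Relative to totals these lay above the untreated WT AID-DIvA libraries and below the recovered WT ones. The label check by ID3 thus holds only between genotypes of the same treatment. It concerns RNA, while the study checked the knockout at the protein level, by Western blot of ID3 in both lines. Replicate 1 of untreated WT U2OS stood apart: its counts differed from those of the other 2 replicates by a chi-square of 91.1 and 103 per gene, against 2.79 to 27.3 for all other replicate pairs. Where fitted log2 differences of members from the main counts that use that library are printed, they are given with and without it. The gene lists were also counted without it, an alternative chosen after seeing the data. As the RNA comes from bulk cultures, fewer cells of a kind and less RNA per cell cannot be told apart.

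Per kilobase of exon, the genes fell into a high and a low set. Averaged over the 8 groups, VIM stood at 126 CPM per kb and CDH2 at 32.2 CPM per kb. SNAI1 followed at 9.77, SNAI2 at 5.88, ZEB1 at 4.39 and EPCAM at 2.85 CPM per kb. CDH1 averaged 0.114, ESRP1 0.0887, ZEB2 0.0166 and TWIST1 0.00137 CPM per kb. The group means of VIM (87.4 to 180 CPM per kb) and of CDH2 (22.3 to 40.7 CPM per kb) did not overlap. Neighbours in the order from SNAI1 to EPCAM did overlap: the group means ran from 4.07 to 24.4 for SNAI1, from 2.89 to 9.75 for SNAI2, from 3.47 to 5.54 for ZEB1 and from 1.94 to 4.02 CPM per kb for EPCAM. CDH1 (0.0448 to 0.290) and ESRP1 (0.0321 to 0.227 CPM per kb) overlapped as well. The N-cadherin and vimentin genes were thus read at higher levels per length than the E-cadherin gene in every group.

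**Figure D1:**
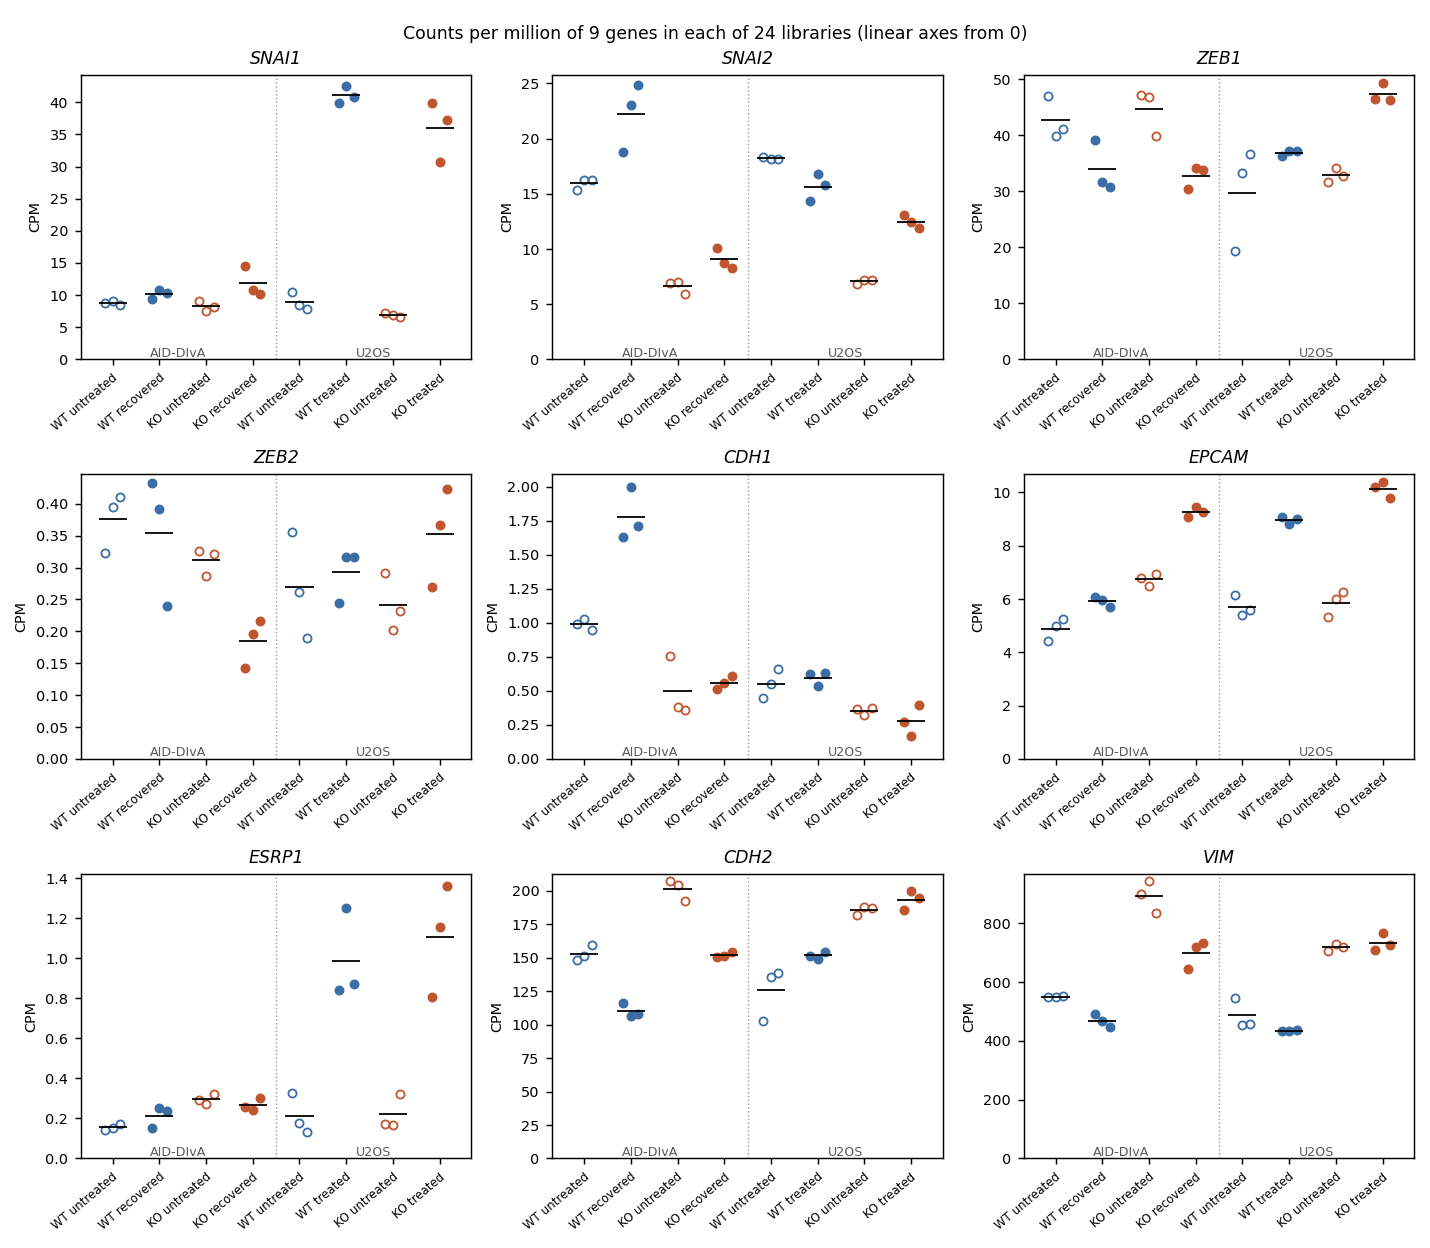
Levels of 9 of the 10 genes in every library, as CPM on linear axes that start at 0, with 3 points per group, a black line at the group mean, open circles for untreated and filled circles for mocetinostat-exposed cells, blue for WT and orange for ID3-KO. SNAI1 and ESRP1 are high in the 6 treated U2OS libraries, while SNAI2 is low in untreated KO cells of both lines; TWIST1 is not drawn because it had 4 counts in all.

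A two-group call required an adjusted p under 0.05 together with a log2 difference larger than 1 in size, and smaller differences are described where their adjusted p was below 0.05 alone. In U2OS cells at the end of treatment, 2 of the 9 tested members, SNAI1 and ESRP1, were called in WT cells, both higher, where 18.6% of all tested genes were called and 13.6% were called higher. The same pair was called higher in KO cells, 2 of 9 tested, where 20.3% of all tested genes were called and 14.6% were called higher. Without its treated libraries ESRP1 would not have passed the filter on low counts in either comparison. It could thus come out higher but not lower, which raises both member counts. In AID-DIvA cells after recovery, 0 of 8 tested members were called in WT cells, against 7.38% of all tested genes, and 0 of 9 were called in KO cells, against 7.46%. By adjusted p alone these edgeR fits passed 7 of 8 members (46.9% of all genes) and 6 of 9 members (40.1% of all genes). In each genotype 7 members had an unadjusted p below 0.05, a limit that at least those shares of all genes also passed. DESeq2 also called 0 members by the stricter rule in either genotype. By adjusted p alone, 3 of 9 members passed in U2OS WT cells (48.9% of all genes) and 5 of 9 in U2OS KO cells (69.9% of all genes). Without untreated WT replicate 1, CDH2 and SNAI2 also passed in U2OS WT cells (edgeR adjusted p = 1.2e-04 and 0.0042). In U2OS cells the share of members called was near the background.

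**Figure D2:**
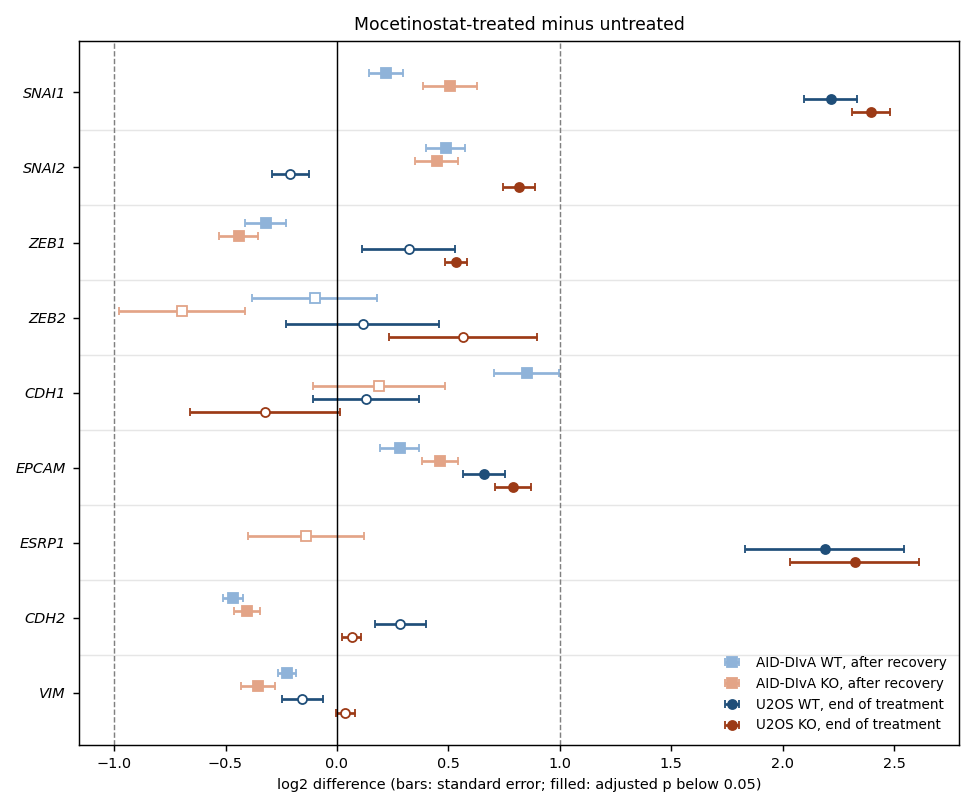
Log2 difference of mocetinostat-exposed minus untreated cells for each tested member, with bars of 1 standard error (squares for AID-DIvA after recovery, circles for U2OS at the end of treatment, blue for WT, orange or brown for KO). Filled marks have an adjusted p below 0.05, and dashed lines mark log2 differences of -1 and 1; only SNAI1 and ESRP1 in U2OS cells lie beyond them.

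SNAI1 (ENSG00000124216.3, hg19 chromosome 20, 48599536 to 48605423, plus strand) encodes Snail, a direct repressor of CDH1. In untreated WT U2OS cells it was read at 10.4, 8.42 and 7.83 CPM, and in treated WT U2OS cells at 39.8, 42.5 and 40.9 CPM. In KO U2OS cells it was read at 7.16, 6.87 and 6.58 CPM without and at 39.8, 30.6 and 37.3 CPM with mocetinostat. All 6 treated libraries lay above all 6 untreated ones, with no overlap. SNAI1 rose by 2.22 ± 0.12 on the log2 scale in WT cells (4.62-fold in mean CPM, SE, n = 3 against 3, edgeR adjusted p = 6.7e-06), or by 2.34 without untreated WT replicate 1. In KO cells it rose by 2.40 ± 0.08 (5.23-fold, edgeR adjusted p = 7.3e-16), and the rises did not pass the test of a difference between genotypes (0.18 ± 0.16, edgeR adjusted p = 0.67, or 0.05 and 0.85 without untreated WT replicate 1). After recovery the change was smaller. AID-DIvA WT cells gave 8.71, 9.16 and 8.45 CPM untreated and 9.41, 10.8 and 10.3 CPM recovered, a log2 difference of 0.22 ± 0.08 (edgeR adjusted p = 0.029). That adjusted p was not below 0.05 when AID-DIvA WT untreated replicate 1 was left out (0.083), nor without replicate 3 of that group (0.12) or recovered replicate 2 (0.12) or 3 (0.069), nor with DESeq2 (0.052) or all 24 libraries in 1 fit (0.19). AID-DIvA KO cells gave 9.07, 7.53 and 8.21 CPM untreated and 14.5, 10.8 and 10.2 CPM recovered (0.51 ± 0.12, edgeR adjusted p = 0.0088). The response in U2OS cells exceeded that in AID-DIvA cells by 2.001 ± 0.14 in WT cells and by 1.90 ± 0.17 in KO cells (edgeR adjusted p = 1.9e-07 and 5.1e-08).

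SNAI2 (ENSG00000019549.4, hg19 chromosome 8, 49830249 to 49834299, minus strand) encodes Slug, the second Snail family repressor, which is common in mesenchymal and neural crest cells. Untreated AID-DIvA libraries were read at 15.4, 16.2 and 16.2 CPM in WT and at 6.94, 6.98 and 5.89 CPM in KO cells. Untreated U2OS libraries were read at 18.3, 18.2 and 18.1 CPM in WT and at 6.86, 7.24 and 7.20 CPM in KO cells. The KO values lay below the WT values in both lines without overlap. The log2 difference of SNAI2, KO minus WT, was -1.29 ± 0.07 in AID-DIvA cells (0.414-fold, edgeR adjusted p = 1.1e-09) and -1.36 ± 0.07 in U2OS cells (0.390-fold, edgeR adjusted p = 5.7e-05). Over all alternatives and left-out libraries the 2 differences ran from -1.33 to -1.23 and from -1.37 to -1.34, with -1.35 for U2OS cells when untreated WT replicate 1 was left out.

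Treatment moved SNAI2 differently in the 2 genotypes of U2OS. Treated WT U2OS cells gave 14.31, 16.8 and 15.8 CPM, all below the untreated WT libraries, a log2 difference of -0.21 ± 0.08 that missed the threshold (edgeR adjusted p = 0.074) and passed it without untreated replicate 1 (0.0042). Treated KO U2OS cells gave 13.1, 12.5 and 11.9 CPM, a rise of 0.82 ± 0.07 over untreated KO cells (1.76-fold, edgeR adjusted p = 8.3e-10). The difference between these responses was 1.03 ± 0.10 (edgeR adjusted p = 8.0e-05), the 1 of 9 tested members called for this interaction, against 2.15% of all tested genes. Without untreated WT replicate 1 the SNAI2 value was 1.02, and the count became 2 because ZEB1 was also called. In AID-DIvA cells SNAI2 was read after recovery at 18.8, 23.0 and 24.9 CPM in WT and at 10.1, 8.73 and 8.33 CPM in KO cells. Both rose over their untreated cells, by 0.49 ± 0.09 and 0.45 ± 0.10 (edgeR adjusted p = 4.7e-04 and 0.0048), with an interaction of -0.04 ± 0.14 (edgeR adjusted p = 0.95). For the AID-DIvA interaction 0 of 9 members were called, against 1.21% of all tested genes, 0 had an unadjusted p below 0.05, and DESeq2 called 0.

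ZEB1 (ENSG00000148516.17, hg19 chromosome 10, 31607424 to 31818742, plus strand) encodes a zinc finger homeobox repressor of epithelial genes. In AID-DIvA cells it was lower after recovery. WT libraries gave 47.1, 39.9 and 41.1 CPM untreated and 39.2, 31.7 and 30.8 CPM recovered, a log2 difference of -0.32 ± 0.09 (edgeR adjusted p = 0.014). Leaving out untreated WT replicate 1 or recovered WT replicate 3 brought the adjusted p to 0.056 and 0.053, and all 24 libraries in 1 fit to 0.078. KO libraries gave 47.3, 46.8 and 39.9 CPM untreated and 30.4, 34.2 and 33.8 CPM recovered (-0.44 ± 0.09, edgeR adjusted p = 0.0035). In U2OS KO cells the direction was the opposite, from 31.6, 34.1 and 32.8 CPM to 46.5, 49.3 and 46.4 CPM, a rise of 0.53 ± 0.05 (edgeR adjusted p = 2.3e-09). U2OS WT cells went from 19.3, 33.2 and 36.7 CPM to 36.3, 37.2 and 37.1 CPM (0.32 ± 0.21, edgeR adjusted p = 0.24). The value of 19.3 CPM was that of the library that stood apart, and without it the difference was 0.09 (edgeR adjusted p = 0.11). The interaction in U2OS cells was 0.22 ± 0.22 with that library (edgeR adjusted p = 0.73) and 0.45 without it (edgeR adjusted p = 3.0e-05).

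ZEB2 and TWIST1 were near the limit of detection. ZEB2 (ENSG00000169554.12, hg19 chromosome 2, 145141648 to 145282147, minus strand), the second ZEB repressor, had between 5 and 28 counts per library and between 0.143 and 0.432 CPM. It passed the threshold in no two-group comparison. Its lowest group was recovered KO AID-DIvA cells at 0.143, 0.196 and 0.217 CPM, below the untreated 0.326, 0.287 and 0.321 CPM without overlap (-0.70 ± 0.28, edgeR adjusted p = 0.075). TWIST1 (ENSG00000122691.8, hg19 chromosome 7, 19060614 to 19157295, minus strand), a helix-loop-helix factor of mesoderm and skull development, had 4 counts over the 24 libraries and at most 2 in any library, below the limit of 3. It was not tested. Counted on the reverse strand alone it had 17 counts, at most 3 in a library.

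ESRP1 (ENSG00000104413.11, hg19 chromosome 8, 95653302 to 95719694, plus strand) encodes an epithelial splicing regulator that is usually silent in mesenchymal cells. It had 7 to 90 counts per library. In WT U2OS cells it went from 0.325, 0.179 and 0.133 CPM to 0.840, 1.25 and 0.869 CPM, and in KO U2OS cells from 0.175, 0.169 and 0.321 CPM to 0.807, 1.16 and 1.36 CPM. All treated libraries lay above all untreated ones. The rises were 2.19 ± 0.36 in WT (4.65-fold, edgeR adjusted p = 0.0016) and 2.32 ± 0.29 in KO cells (5.004-fold, edgeR adjusted p = 2.4e-07), with an interaction of 0.14 ± 0.51 (edgeR adjusted p = 0.94). Without untreated WT replicate 1, at 0.325 CPM, the WT rise was 2.61 (edgeR adjusted p = 5.8e-09) and the interaction turned to -0.28 (edgeR adjusted p = 0.82). A filter of at least 10 counts in every library removes ESRP1 from both tests. Under the filter used, ESRP1 was tested in U2OS cells only because of its treated libraries, so a lower value could not have been found there. In AID-DIvA cells the levels were 0.141, 0.155 and 0.174 CPM in untreated and 0.150, 0.253 and 0.239 CPM in recovered WT cells, where the gene did not pass the filter on low counts. KO cells gave 0.292, 0.273 and 0.321 CPM untreated and 0.257, 0.242 and 0.304 CPM recovered (-0.14 ± 0.26, edgeR adjusted p = 0.73). The U2OS response exceeded the AID-DIvA response by 1.76 ± 0.52 in WT and 2.47 ± 0.43 in KO cells (edgeR adjusted p = 0.015 and 9.6e-05).

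CDH1 (ENSG00000039068.14, hg19 chromosome 16, 68771128 to 68869451, plus strand), the E-cadherin gene, was low throughout, with 9 to 93 counts per library. It was read at 0.990, 1.03 and 0.949 CPM in untreated WT AID-DIvA cells and at 1.64, 2.003 and 1.71 CPM after recovery. The recovered libraries lay above the untreated ones without overlap, and CDH1 rose by 0.85 ± 0.15 (1.80-fold, edgeR adjusted p = 3.7e-04). Recovered KO cells, at 0.513, 0.559 and 0.607 CPM, lay within the untreated KO values of 0.756, 0.383 and 0.359 CPM (0.19 ± 0.30, edgeR adjusted p = 0.64). The 2 responses did not pass the test of a difference (-0.65 ± 0.32, edgeR adjusted p = 0.44). In U2OS cells CDH1 was read at 0.449, 0.551 and 0.663 CPM in untreated and 0.626, 0.536 and 0.632 CPM in treated WT cells (0.13 ± 0.24, edgeR adjusted p = 0.68, or 0.0075 and 0.98 without untreated replicate 1). KO U2OS cells gave 0.368, 0.321 and 0.374 CPM untreated and 0.269, 0.165 and 0.393 CPM treated (-0.32 ± 0.34, edgeR adjusted p = 0.41). Reverse-strand counts turned this KO difference to 0.41 (edgeR adjusted p = 0.35) and gave 0.34 in U2OS WT, 0.84 in AID-DIvA WT and 0.55 in AID-DIvA KO cells, with an AID-DIvA interaction of -0.28 (edgeR adjusted p = 0.82). Of these treatment values only that of AID-DIvA WT cells passed the test (edgeR adjusted p = 2.3e-04). SNAI1 and CDH1 were thus 4.62-fold and 1.08-fold their untreated mean CPM in the same treated WT U2OS libraries. CDH1 was 1.24-fold there on reverse-strand counts and rested on 41, 27 and 48 counts in the treated libraries. A link between the 2 genes was not tested.

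Between genotypes CDH1 was lower in KO cells. The difference was -1.02 ± 0.24 in untreated AID-DIvA cells (0.504-fold, edgeR adjusted p = 0.0028) and -0.64 ± 0.26 in untreated U2OS cells (0.639-fold, edgeR adjusted p = 0.15, or -0.77 and 0.059 without untreated WT replicate 1). All KO libraries lay below all WT libraries of their line, treated or not. The first of these lay close to the threshold of -1 and crossed it when untreated WT replicate 2 (-0.99), KO replicate 2 (-0.83) or KO replicate 3 (-0.88) was left out. The counts from either strand were 81.8% to 233% of those from the reverse strand in single libraries. On counts of the reverse strand alone the 2 differences were -1.39 and -1.28 (edgeR adjusted p = 0.002 and 0.043), so that CDH1 was then called in both lines.

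EPCAM (ENSG00000119888.6, hg19 chromosome 2, 47572297 to 47614740, plus strand), an epithelial adhesion molecule, rose by adjusted p in all 4 treatment comparisons, as SNAI1 did, though in none beyond a log2 difference of 1. U2OS WT cells went from 6.16, 5.39 and 5.59 CPM to 9.06, 8.83 and 9.02 CPM, a rise of 0.66 ± 0.09 (1.57-fold, edgeR adjusted p = 7.9e-04), or of 0.72 without untreated replicate 1. U2OS KO cells went from 5.31, 6.004 and 6.28 CPM to 10.2, 10.4 and 9.79 CPM, a rise of 0.79 ± 0.08 (1.73-fold, edgeR adjusted p = 8.1e-09). AID-DIvA WT cells went from 4.42, 4.98 and 5.25 CPM to 6.07, 5.96 and 5.72 CPM (0.28 ± 0.09, edgeR adjusted p = 0.019). The last of these was lost without untreated replicate 1, where the adjusted p was 0.091, and without recovered replicate 2 (0.054), and stood at 0.05 without untreated replicate 2. AID-DIvA KO cells went from 6.80, 6.49 and 6.93 CPM to 9.06, 9.45 and 9.28 CPM (0.46 ± 0.08, edgeR adjusted p = 0.0014). Treated and untreated libraries did not overlap in any of the 4 comparisons. Untreated AID-DIvA KO cells were higher than WT cells by 0.43 ± 0.08 (edgeR adjusted p = 6.2e-04), while in U2OS cells the genotypes overlapped (0.04 ± 0.11, edgeR adjusted p = 0.86, or 0.0999 and 0.45 without untreated WT replicate 1).

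The mesenchymal members CDH2 and VIM were higher in KO cells and, after recovery in AID-DIvA cells, lower than without treatment. CDH2 (ENSG00000170558.4, hg19 chromosome 18, 25530930 to 25757410, minus strand), the N-cadherin gene, was read at 149, 152 and 159 CPM in untreated WT and at 208, 204 and 193 CPM in untreated KO AID-DIvA cells (0.37 ± 0.04, edgeR adjusted p = 4.5e-06). In untreated U2OS cells it was read at 103, 136 and 138 CPM in WT and at 182, 188 and 187 CPM in KO cells (0.56 ± 0.12, edgeR adjusted p = 0.019), and the difference was 0.44 without untreated WT replicate 1. KO cells were higher in both lines without overlap. After recovery CDH2 fell in AID-DIvA cells, to 116, 107 and 108 CPM in WT (-0.47 ± 0.05, edgeR adjusted p = 2.7e-06) and to 150, 152 and 154 CPM in KO cells (-0.40 ± 0.06, edgeR adjusted p = 4.4e-04). At the end of treatment it was read at 152, 149 and 155 CPM in WT U2OS cells (0.28 ± 0.12, edgeR adjusted p = 0.076) and at 186, 199.8 and 195 CPM in KO cells (0.07 ± 0.04, edgeR adjusted p = 0.17). Without untreated WT replicate 1, at 103 CPM, the WT difference was 0.15 (edgeR adjusted p = 1.2e-04).

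VIM (ENSG00000026025.9, hg19 chromosome 10, 17270258 to 17279592, plus strand) encodes vimentin. Its count depends on how strand was treated: over all libraries the counts from either strand were 39.3% of those from the reverse strand, the strand of the transcript in these libraries, and 34.4% to 47.1% in single libraries. The antisense genes VIM-AS1 and RP11-124N14.3 overlap it on the minus strand. From either strand VIM was read at 549, 548 and 555 CPM in untreated WT and at 901, 944 and 835 CPM in untreated KO AID-DIvA cells, and the KO cells were higher by 0.68 ± 0.04 (1.62-fold, edgeR adjusted p = 7.6e-09). Untreated U2OS cells gave 548, 456 and 456 CPM in WT and 706, 730 and 721 CPM in KO cells (0.56 ± 0.09, 1.48-fold, edgeR adjusted p = 0.0067), a difference that was 0.66 without WT replicate 1. Counted on the reverse strand the same differences were 0.66 ± 0.04 and 0.59 ± 0.08 (edgeR adjusted p = 2.6e-08 and 0.0026). The KO libraries lay above the WT libraries under both countings.

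Recovered AID-DIvA cells had less VIM, at 492, 466 and 448 CPM in WT (-0.22 ± 0.04, edgeR adjusted p = 5.8e-04) and at 643, 719 and 732 CPM in KO cells (-0.35 ± 0.08, edgeR adjusted p = 0.0047). On the reverse strand these were -0.17 and -0.21 (edgeR adjusted p = 0.0011 and 0.013). In U2OS cells VIM was read at 433, 434 and 436 CPM in treated WT (-0.16 ± 0.09, edgeR adjusted p = 0.21, or -0.06 and 0.081 without untreated replicate 1) and at 710, 768 and 725 CPM in treated KO cells (0.04 ± 0.04, edgeR adjusted p = 0.46).

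**Figure D3:**
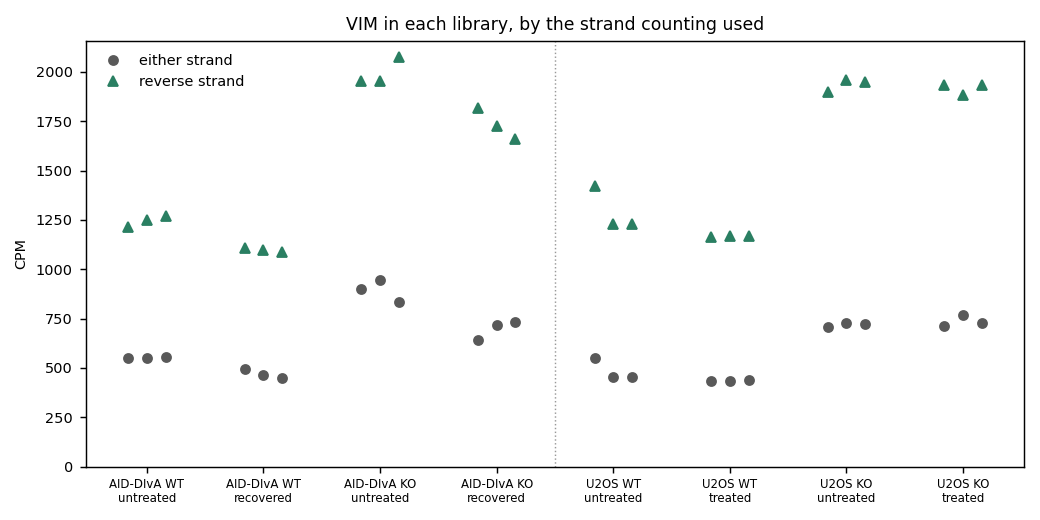
VIM in each of the 24 libraries as CPM from counts of either strand (grey circles) and of the reverse strand alone (green triangles), on a linear axis from 0. Reverse-strand values lie above the others in every library, and KO libraries lie above WT libraries of the same line and treatment under both countings.

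Among untreated cells, genotype called 2 of 9 tested members in AID-DIvA cells, SNAI2 and CDH1, both lower in KO cells, where 4.58% of all tested genes were called and 2.3% were called lower. In U2OS cells it called 1 of 9, SNAI2, also lower, where 4.26% of all tested genes were called and 2.84% were called lower. By adjusted p alone 6 of 9 members passed in AID-DIvA cells (36.7% of all genes) and 3 of 9 in U2OS cells (15.2% of all genes). ESRP1 was among the former at 0.86 ± 0.31 (edgeR adjusted p = 0.038), a value that missed the threshold with DESeq2 (0.17) and with any 1 library left out. In U2OS cells SNAI1 missed it at -0.38 ± 0.12 (edgeR adjusted p = 0.085). Without untreated WT replicate 1 SNAI1 passed by adjusted p alone (-0.25, edgeR adjusted p = 0.018). ZEB1, ESRP1 and ZEB2 did not pass in U2OS cells (0.14, 0.04 and -0.17), and were -0.09, 0.48 and 0.07 without that library. The untreated libraries also enter the treatment comparisons. Between the untreated lines 0 of 9 members were called in either genotype, against 3.19% of all tested genes in WT and 1.51% in KO cells. DESeq2 called 0 as well, and 4 members in each genotype had an unadjusted p below 0.05. At least 25.7% of all genes in WT and 44.7% in KO cells also passed that limit. By adjusted p alone CDH1 was lower in U2OS than in AID-DIvA WT cells (-0.85 ± 0.20, edgeR adjusted p = 0.021, 1 of 9 members against 25.7% of all genes). This was -0.74 without untreated U2OS replicate 1 (0.0059) and -0.85 without its replicate 2, where the adjusted p was 0.053. In KO cells VIM (-0.29), SNAI1 (-0.24) and ZEB1 (-0.42) passed by adjusted p alone, 3 of 9 against 44.7% of all genes, but VIM did not on the reverse strand (-0.02, edgeR adjusted p = 0.74).

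**Figure D4:**
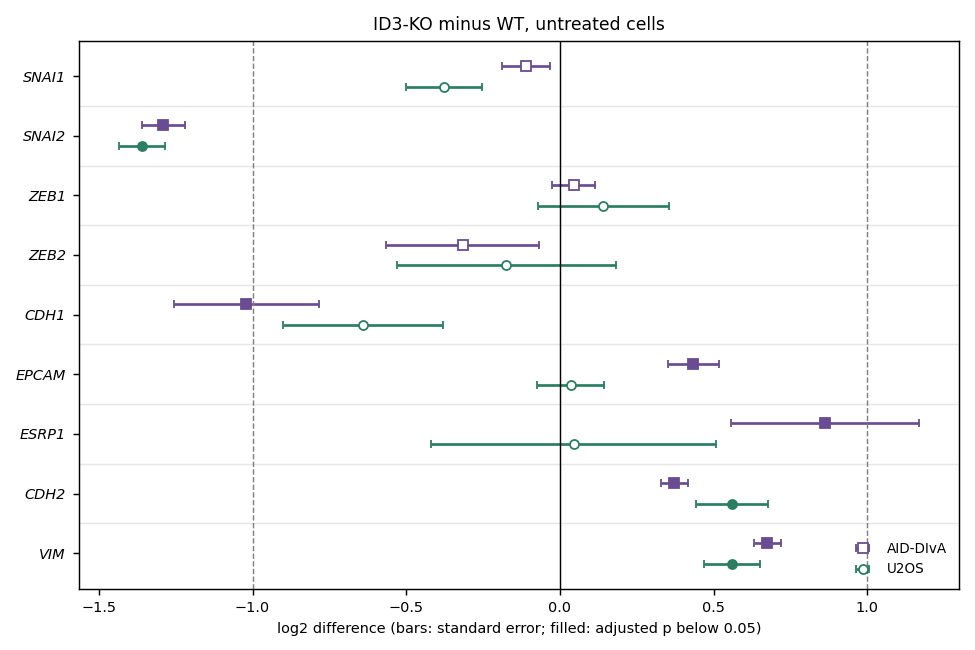
Log2 difference of ID3-KO minus WT in untreated cells for each tested member, with bars of 1 standard error (squares for AID-DIvA, circles for U2OS). Filled marks have an adjusted p below 0.05, and dashed lines mark -1 and 1; SNAI2 lies below -1 in both lines, and VIM and CDH2 lie above 0 in both.

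The response at the end of treatment in U2OS cells differed from the response after recovery in AID-DIvA cells for 7 of 9 tested members in WT cells, against 42.2% of all tested genes, and for 8 of 9 in KO cells, against 52.5%. Cell line and time of collection cannot be told apart here. In WT cells the members were SNAI1, ESRP1, CDH2, ZEB1 and EPCAM, with the more positive response in U2OS cells, and SNAI2 and CDH1, with the more negative one. In KO cells every called member had the more positive response in U2OS cells, and CDH1 was not called (-0.50 ± 0.46, edgeR adjusted p = 0.39). In WT cells CDH1, EPCAM and ZEB1 were close to the threshold, and the count fell to 4 of 9 without recovered AID-DIvA replicate 2 or 3, untreated AID-DIvA replicate 2 or 3, or treated U2OS replicate 1 or 3. Without untreated U2OS replicate 1 it was 8, with VIM added (0.17, edgeR adjusted p = 0.0097), and the others were 2.13 for SNAI1, 2.19 for ESRP1, 0.63 for CDH2, 0.42 for ZEB1, 0.45 for EPCAM, -0.69 for SNAI2 and -0.83 for CDH1. On reverse-strand counts CDH1 was not called (-0.49, edgeR adjusted p = 0.13).

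Other genes of the same programme were taken as 8 lists and counted by the same rule, beside all tested genes. Of those, 5.06% were called lower in treated WT and 5.77% in treated KO U2OS cells, beside the 13.6% and 14.6% called higher. In AID-DIvA cells 4.86% were called higher and 2.52% lower in WT, and 4.9% higher and 2.56% lower in KO cells. Without untreated WT replicate 1 the counts in treated WT U2OS cells changed by at most 1 in either direction for each of these lists, and each gene named there was still called. Among epithelial transcription factors in treated U2OS cells, of 12 tested, 6 were called higher and 0 lower in WT cells (median log2 difference 1.13, against 0.01 for all genes) and 5 higher and 0 lower in KO cells (median 0.92, against 0.00). A gene that passed the filter on low counts only through its treated libraries could come out higher but not lower. This raises the counts called higher and the medians. Between untreated U2OS genotypes 10 of these factors were tested, and 14 of the other classical cadherins and catenins, against 16 in the treatment comparisons. GRHL1, a grainyhead factor that opens epithelial enhancers, went from 3.05 to 3.99 CPM up to 22.99 to 24.3 CPM in WT (2.76 ± 0.11, edgeR adjusted p = 2.3e-06) and rose by 2.31 ± 0.07 in KO cells (edgeR adjusted p = 1.7e-18). ELF3, an epithelial ETS factor, rose by 5.48 ± 0.37 in WT cells (edgeR adjusted p = 1.9e-05), from 0.0464 to 0.246 CPM up to 4.74 to 5.23 CPM. GRHL3 rose by 1.10 ± 0.19 in KO cells (edgeR adjusted p = 1.5e-05). After recovery in AID-DIvA cells, 1 of 9 tested was called higher and 0 lower in WT cells (median 0.33), and 1 of 10 higher and 1 lower in KO cells (median 0.26).

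Epithelial junction genes followed a mixed pattern. In treated U2OS cells 8 of 22 tested were called higher and 2 lower in WT (median 0.41), and 8 of 20 higher and 1 lower in KO cells (median 0.33). CLDN1, a tight junction claudin, rose by 3.47 ± 0.08 in WT and 3.21 ± 0.05 in KO cells (edgeR adjusted p = 2.4e-07 and 4.8e-22), from 6.72 to 7.18 CPM up to 73.6 to 79.1 CPM in WT cells. TJP3, a tight junction scaffold, rose by 2.38 ± 0.11 and 2.91 ± 0.07 (edgeR adjusted p = 4.0e-06 and 1.4e-19), while PKP3, a desmosome plaque protein, was lower by log2 differences of -1.53 and -1.84 (edgeR adjusted p = 1.0e-04 and 7.7e-17). In AID-DIvA cells 3 of 21 (WT) and 3 of 20 (KO) were called higher and 0 lower. Among them, CLDN1 was higher by 1.98 ± 0.09 and 1.31 ± 0.07 (edgeR adjusted p = 2.5e-09 and 1.2e-06) and JUP, which encodes plakoglobin, by 1.30 ± 0.17 and 1.601 ± 0.09 (edgeR adjusted p = 0.0018 and 1.2e-06).

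Of the epithelial keratin, polarity and surface genes, 6 of 13 were called higher and 2 lower in treated WT U2OS cells (median 0.46, or 1.32 over 15 tested without untreated replicate 1) and 3 higher and 2 lower of 13 in KO cells (median 0.25). MAL2, a protein of apical transport, rose by 3.20 ± 0.10 and 3.66 ± 0.10 (edgeR adjusted p = 8.8e-07 and 1.8e-18), whereas AP1M2, an epithelial clathrin adaptor subunit, was lower (-1.95 and -1.78, edgeR adjusted p = 6.4e-05 and 4.0e-19). MUC1, an apical mucin, was lower (-1.04 and -1.07, edgeR adjusted p = 1.3e-04 and 2.7e-11). EPS8L1 rose by 1.72 ± 0.18 and 2.06 ± 0.19 (edgeR adjusted p = 1.9e-04 and 2.1e-09). In AID-DIvA cells 2 of 11 (WT) and 2 of 12 (KO) were called higher and 0 lower. The keratin gene KRT7 was higher there by 2.30 ± 0.12 and 2.46 ± 0.13 (edgeR adjusted p = 5.0e-09 and 8.2e-07), and MAL2 by 1.36 ± 0.14 and 1.45 ± 0.21 (edgeR adjusted p = 4.7e-06 and 4.6e-04).

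Of the mesenchymal matrix and surface genes in treated U2OS cells, 0 of 25 were called higher and 3 lower in WT (median -0.19) and 1 of 26 higher and 3 lower in KO cells (median -0.26). The receptor tyrosine kinase gene AXL fell by 1.30 ± 0.07 in WT cells (edgeR adjusted p = 4.9e-06), and the fibroblast protease gene FAP was lower in WT and KO cells (-1.66 and -1.54, edgeR adjusted p = 1.8e-04 and 1.3e-10). The collagen gene COL3A1 fell by 1.98 in KO cells (edgeR adjusted p = 2.2e-20). In AID-DIvA cells 3 of 25 were called higher and 3 lower in each genotype. TGFBI, a matrix protein, was higher by 2.54 ± 0.06 and 2.04 ± 0.06 in recovered WT and KO cells (edgeR adjusted p = 1.7e-11 and 5.4e-08), and the osteoblast cadherin gene CDH11 was lower by -1.68 ± 0.12 and -2.07 ± 0.10 (edgeR adjusted p = 1.1e-07 and 5.1e-07). COL6A3 was higher by 1.19 and COL3A1 lower by -1.64 in WT cells (edgeR adjusted p = 1.8e-09 and 2.5e-06), and POSTN was higher by 2.72 and LOX lower by -1.39 in KO cells (edgeR adjusted p = 7.4e-06 and 3.2e-06).

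The other EMT transcription factors gave 1 of 15 called higher and 3 lower in treated WT U2OS cells (median -0.35) and 1 higher and 2 lower in KO cells (median -0.33). SNAI3, the third Snail family member, rose by 1.603 ± 0.13 and 1.34 ± 0.12 (edgeR adjusted p = 5.4e-05 and 6.5e-10). TCF4, a helix-loop-helix factor, was lower (-1.38 and -1.36, edgeR adjusted p = 3.0e-04 and 2.1e-16), and HMGA2, an architectural chromatin protein, was lower (-1.28 and -1.06, edgeR adjusted p = 3.7e-05 and 5.3e-15). In AID-DIvA cells 0 of 15 were called in either genotype. Among 18 cofactors and turnover factors of SNAI and ZEB proteins, which include HDAC1 and HDAC2, only AJUBA was called, lower in treated U2OS cells by -1.12 ± 0.07 in WT and -1.498 ± 0.05 in KO cells (edgeR adjusted p = 1.5e-05 and 5.6e-18), and 0 were called in AID-DIvA cells. Of 9 EMT splicing regulators only RBM47, which promotes epithelial splicing, was called. It rose from 2.97 to 4.61 CPM up to 19.3 to 20.4 CPM in WT U2OS cells (2.38 ± 0.15, edgeR adjusted p = 1.4e-05) and by 2.69 ± 0.09 in KO cells (edgeR adjusted p = 3.1e-17), and 0 of 9 were called in AID-DIvA cells.

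Other classical cadherins and catenins gave 7 of 16 called higher and 1 lower in treated WT U2OS cells (median 0.62) and 6 higher and 1 lower of 16 in KO cells (median 0.53). CTNNA2, a neuronal alpha-catenin, rose by 3.71 ± 0.24 and 3.87 ± 0.17 (edgeR adjusted p = 1.6e-05 and 2.4e-15). CTNND2 rose by 2.03 in WT and CDH15 by 2.02 in KO cells (edgeR adjusted p = 5.6e-06 and 5.5e-12), and CDH8 was lower (-1.31 and -1.35, edgeR adjusted p = 1.4e-04 and 8.1e-07). In AID-DIvA cells 2 of 15 were called higher in each genotype and 3 (WT) and 0 (KO) lower. There CTNNA2 was higher by 1.83 and 1.97 in WT and KO cells (edgeR adjusted p = 2.2e-06 and 2.3e-05), and CTNND2 and CDH13 were lower by -1.26 and -1.21 in WT cells (edgeR adjusted p = 5.6e-07 and 5.9e-09).

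**Figure D5:**
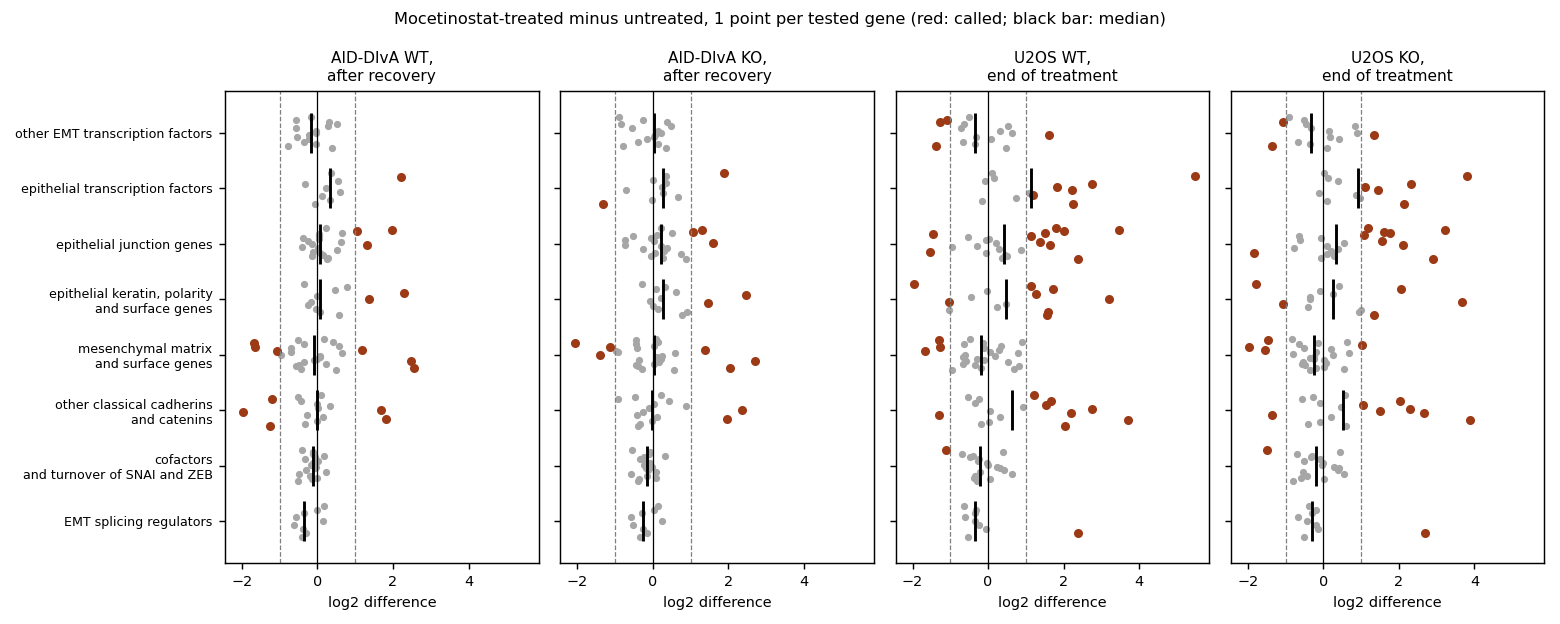
Log2 difference of mocetinostat-exposed minus untreated cells for each tested gene of 8 lists in the 4 treatment comparisons, with called genes in brown-red, others in grey and a black bar at the list median. The medians of the epithelial transcription factors lie at 1.13 and 0.92 in U2OS WT and KO cells and at 0.33 and 0.26 in AID-DIvA cells, and all list medians of the AID-DIvA comparisons lie between -0.35 and 0.33.

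The 6 members with a mean of at least 1 CPM were compared with 15592 other such genes by Pearson's r of log2(CPM + 0.5) over the 24 libraries, which share the 8 groups and their replicates, so that the r values are descriptions only. SNAI1 was most like ADCY8 (r = 0.992), AQP3 (0.986) and ASMTL (0.986), and SNAI2 most like CAMK2N1 (r = 0.939), SRPX (0.934) and SPOCD1 (0.933). ZEB1 was most like ITGA4 (r = 0.926), SLK (0.922) and TNKS2 (0.913), and EPCAM most like AIM1L (r = 0.946), EMP1 (0.943) and PPP1R14C (0.943). CDH2 was most like MPP7 (r = 0.961), C11orf54 (0.941) and ZCCHC2 (0.939), and VIM most like RAB18 (r = 0.971), ZW10 (0.969) and PPP2R1B (0.965).

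The labelled cell type was checked against lineage markers. Of the 9 osteoblast lineage markers, COL1A1 was read at 824 to 2528 CPM over the 24 libraries, RUNX2 at 11.8 to 47.95 CPM and SPP1 at 15.0 to 61.0 CPM, while SP7 did not exceed 0.114 CPM and IBSP not 0.403 CPM. RUNX2 was called lower in treated WT U2OS cells (-1.53 ± 0.12, edgeR adjusted p = 3.8e-05), and SPP1 higher in treated WT and KO U2OS cells (1.02 and 1.73, edgeR adjusted p = 2.5e-05 and 7.0e-17). Of the epithelial markers, KRT8 (132 to 310 CPM) and KRT18 (88.4 to 185 CPM) were abundant in all libraries, and GRHL2 did not exceed 0.0633 CPM nor KRT19 0.303 CPM. KRT14 was called lower in treated WT U2OS cells (-3.18 ± 0.32, edgeR adjusted p = 1.4e-04), the 1 of 6 tested epithelial markers called there. Without untreated WT replicate 1, 7 of these markers were tested, with 1 called higher and 1 lower. Blood markers were at or near 0, with HBB at 0 counts in every library and PTPRC at no more than 0.407 CPM, and of the 3 endothelial markers with a row CDH5 reached 0.917 CPM, TEK 0.898 CPM and VWF 10.04 CPM. Of the blood markers tested, 0 of 1 were called higher and 1 lower in recovered WT, 0 of 1 in recovered KO, and 1 of 2 higher in treated WT and in treated KO U2OS cells. Between untreated U2OS genotypes 1 blood marker was tested. Of the 3 endothelial markers 1 was called higher in each of the 4 treatment comparisons. Of all tested genes 13.6% and 14.6% were called higher in treated WT and KO U2OS cells, and 5.06% and 5.77% lower. In recovered WT and KO AID-DIvA cells 4.86% and 4.9% were called higher, and 2.52% and 2.56% lower. Osteoblast markers had 0 of 7 calls in either AID-DIvA comparison, and 2 of 8 higher and 1 lower in treated WT and 3 of 8 higher in treated KO U2OS cells. Epithelial markers had 1 of 6 called lower in recovered WT and 0 of 5 called in recovered KO and in treated KO U2OS cells. Between untreated genotypes, 3 of 6 tested epithelial markers were called lower in KO AID-DIvA cells (median -0.63) and 1 of 6 in KO U2OS cells (median -0.42). Of all tested genes 2.3% and 2.84% were called lower in KO AID-DIvA and KO U2OS cells, and 2.27% and 1.42% were called higher. By adjusted p alone 4 of the markers were lower and 2 higher in KO AID-DIvA cells, with EPCAM, also a member, among the higher (0.43). The markers called lower were KRT5 (-1.63), KRT14 (-2.53) and CDH1 itself, which this list also holds, in AID-DIvA cells and KRT14 (-4.80) in U2OS cells. Epithelial transcription factors gave 2 of 9 called higher and 0 lower in KO AID-DIvA cells (median 0.39). In KO U2OS cells 0 of 10 were called higher and 1 lower (median 0.26, or 0.01 without untreated WT replicate 1). Junction genes gave 2 higher and 2 lower of 20 in AID-DIvA (median 0.12) and 2 higher and 3 lower of 21 in U2OS cells. Keratin, polarity and surface genes gave 1 higher and 1 lower of 12 (median 0.30), and 0 higher and 1 lower of 13 (2 higher without that replicate). Of the osteoblast markers 2 of 7 were called lower in KO cells of each line (medians -0.84 and -0.81), namely ALPL (-2.22 and -1.73) and COL1A2 (-1.56 and -2.82), named after their values were seen. The endothelial marker VWF was called lower in KO U2OS cells (-1.06), the 1 of 2 tested there, and 0 of 2 were called in AID-DIvA cells. The blood marker tested was called in neither line. These marker differences stand beside the lower SNAI2 and CDH1 in KO cells. The part that such markers play in the members' changes was not tested.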

How the data were processed

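Stranded total RNA from 24 cultures was read as paired ends. The authors used STAR on the hg19/GRCh37 build, then featureCounts, and deposited raw counts per gene for every library, from either strand and for each strand, with no pooling. Tool versions were not given in the sources used here. Gene coordinates are those of the deposited files. Counts from either strand were tested, and reads where genes on opposite strands overlap are affected by that choice.

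Groups follow the sample titles. edgeR 4.0.16 under R 4.3.3 was run on all genes (TMM factors, filterByExpr, robust quasi-likelihood tests), and p-values were adjusted by Benjamini-Hochberg over every gene tested. Two-group comparisons were fitted on their own 6 libraries, and interactions and differences between responses on 12. The call needed both an adjusted p under 0.05 and a log2 size over 1 for two-group comparisons, and the adjusted p only for the others. Each standard error was computed as |log2 difference| / sqrt(F). CPM uses TMM factors over all 24 libraries. Values after ± are standard errors, with n = 3 per group. The replicates are biological replicates by the study's methods, and none differed from another by as little as sampling noise.

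The members and lists were chosen with earlier results of these data known. Named beside the members are, per list and treatment comparison, up to 2 called genes with the largest difference in each direction and a mean of at least 1 CPM, and per member the 3 genes of highest Pearson r. CD24 and PECAM1, 2 genes of the lists, were not used here. Alternatives were DESeq2 1.42.0, its size factors in edgeR, library totals, no filter, at least 10 counts in every library, reverse-strand counts, the replicate number as a block, all 24 libraries in 1 fit, adjusted p alone, and each library left out. Counting the lists without 1 library was added after seeing the data. The steps were tested on simulated counts. The deposited TPM and FPKM columns were not used here.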

Additional observations from a re-analysis of the deposited data

Results flagged for a closer look

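The results below are those in which the response to mocetinostat differed between 2 groups by a test of the difference itself. In U2OS cells the treatment response of SNAI2 differed between KO and WT by 1.03 ± 0.10 on the log2 scale (edgeR adjusted p = 8.0e-05). Treated KO libraries lay above and treated WT libraries below their untreated ones without overlap (0.82 and -0.21). The WT difference missed the threshold (edgeR adjusted p = 0.074) and passed it without untreated WT replicate 1 (0.0042).

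The other differences set the response of U2OS cells at the end of treatment against that of AID-DIvA cells after recovery, where cell line and time of collection cannot be told apart. In WT cells they were 2.001 for SNAI1, 1.76 for ESRP1, 0.76 for CDH2, 0.65 for ZEB1, 0.38 for EPCAM, -0.69 for SNAI2 and -0.71 for CDH1, with edgeR adjusted p of 1.9e-07, 0.015, 3.0e-04, 0.044, 0.027, 9.0e-04 and 0.036. In KO cells they were 2.47 for ESRP1, 1.90 for SNAI1, 1.28 for ZEB2, 0.99 for ZEB1, 0.48 for CDH2, 0.40 for VIM, 0.38 for SNAI2 and 0.34 for EPCAM, with edgeR adjusted p of 9.6e-05, 5.1e-08, 0.018, 1.7e-07, 1.5e-05, 5.4e-04, 0.016 and 0.016. Without untreated WT U2OS replicate 1 the ZEB1 value in WT cells was 0.42 (edgeR adjusted p = 0.011), and on reverse-strand counts the CDH1 value was -0.49 (edgeR adjusted p = 0.13). The VIM value in KO cells was 0.19 on reverse-strand counts (edgeR adjusted p = 0.027). ZEB2 rests on 5 to 28 counts per library.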

How the results depend on the processing

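Of 1732 values of single members recomputed under other settings, 0 called values changed sign, 45 lost and 30 gained a call, and 27 values that were not called changed sign. Without a fold threshold the members called for treatment were 7 (AID-DIvA WT, 46.9% of all genes), 6 (AID-DIvA KO, 40.1%), 3 (U2OS WT, 48.9%) and 5 (U2OS KO, 69.9%). For genotype they were 6 (AID-DIvA, 36.7%) and 3 (U2OS, 15.2%), and for line 1 (WT, 25.7%) and 3 (KO, 44.7%). Requiring 10 counts in every library left 1 call in each U2OS treatment comparison because ESRP1 was removed. With all 24 libraries in 1 fit the AID-DIvA genotype comparison kept 1 call, with CDH1 at -0.99, and reverse-strand counts gave 2 calls in the U2OS genotype comparison. Leaving out single libraries, the calls ran from 1 to 2 for the AID-DIvA genotype comparison, from 1 to 2 for the U2OS interaction and from 4 to 8 for the difference of responses in WT cells. They ran from 7 to 8 for that difference in KO cells and stayed at the reported count in the remaining comparisons. Scaling to library totals without TMM moved the median log2 difference of all genes by up to 0.14 and reversed no called member.

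Replicate numbers were not taken to pair the samples, since 5 of 24 same-numbered pairs had a correlation of deviations above 0.1 (range -0.43 to 0.31) and in 0 comparisons all did. With the replicate number as a block the calls were 0 and 0 (AID-DIvA treatment), 2 and 2 (U2OS treatment), 2 and 1 (genotype), 0 and 0 (line), 0 and 1 (interactions) and 5 and 8 (differences of responses in WT and KO), so 2 calls changed, CDH1 (adjusted p = 0.055) and ZEB1 (0.066) in WT cells. Over all genes the block moved the count of calls from 258 to 157 for the AID-DIvA interaction and by less than 1.5 times elsewhere.

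CDH1, ESRP1 and ZEB2 rest on at most 93, 90 and 28 counts per library, TWIST1 was not measurable at this depth, and each group has 3 replicates.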
